A study of Mus musculus with 29 samples.

Results

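The granulocyte and monocyte programme was followed in blood stem and progenitor cells of mouse bone marrow through 10 genes, taken by symbol from the 23366 genes of the count tables. Cebpa, Cebpe and Irf8 encode transcription factors and Csf1r encodes the receptor for the growth factor CSF1. Mpo, Elane, Prtn3 and Ctsg encode myeloperoxidase, neutrophil elastase, proteinase 3 and cathepsin G, the enzymes of the primary granules of neutrophils. Ms4a3 encodes a membrane protein of granulocyte and monocyte progenitors, and Lyz2 encodes the lysozyme of mature myeloid cells. All 10 symbols were found, and all 10 passed the filter on low counts in every fit.

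In blood formation C/EBPα, the product of Cebpa, works with PU.1 to direct multipotent progenitors to the granulocyte and monocyte fate. C/EBPε acts later, when granulocytes make their secondary granules, whereas IRF8 favours monocytes and dendritic cells over neutrophils, and signals through CSF1R sustain monocytes and macrophages. The granule enzymes are transcribed from the early progenitor to the promyelocyte, and lysozyme RNA stays high in mature neutrophils and macrophages.

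Cells of the marrow that lacked lineage markers and carried cKit and Sca1 were sorted into those with and without CD150, a SLAM receptor found on stem cells, and their RNA was sequenced after removal of ribosomal RNA. The CD150-positive cells gave 7 libraries labelled Mysm1-/-Puma-/-, 4 labelled Mysm1-/-Puma+/-, 2 labelled Puma-/- and 4 from wild type, and the CD150-negative cells gave 3 libraries of each of these genotypes. Mysm1 encodes a histone H2A deubiquitinase and Puma, whose gene is Bbc3, is a cell death protein. The mice were C57BL/6, between 8 and 12 weeks old and of both sexes, and each library is labelled as pooled for sex. The submitters used Mysm1-/-Puma+/- in place of Mysm1-/-, so that group differed from wild type in Puma as well, and no group lacked Mysm1 with both Puma alleles intact. Whether the libraries of 1 group stem from different animals is not stated in the labels, so the spread behind each p-value is that between libraries and may be technical. Some names hold a pair of numbers (C1-4, C2-5, D3-4), and the CD150-positive libraries P1, P2, P3 (Mysm1-/-Puma-/-) and W1 (wild type) have names with P and W. The labels neither explain these letters nor join P with W, and taking the P and W libraries together is a choice made here.

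Totals ran from 12304713 to 35034318 counts in CD150-positive and from 28066870 to 54339749 counts in CD150-negative libraries. Slamf1, which encodes CD150, lay at 10.97 to 30.4 CPM, the usual unit of read counts scaled for depth, here with TMM factors, in CD150-positive and at 0.218 to 2.30 CPM in CD150-negative libraries. Counts over whole genes did not check the genotypes: Mysm1 averaged 80.5, 101 and 121 CPM in CD150-positive libraries labelled Mysm1-/-Puma-/-, Mysm1-/-Puma+/- and wild type. Bbc3 averaged 19.4 CPM in CD150-positive libraries labelled Mysm1-/-Puma-/-, against 3.81 CPM in wild type, so every genotype direction rests on the labels. Counts on the 1467 receptor genes of smell and pheromone sensing, which these cells are not known to use, exceeded 1.5 times the population's median in 4 libraries, CD150-positive B5, C2-5 and D2 and CD150-negative B1.

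The 10 genes spanned a wide range of levels per length. In CD150-negative libraries the median RPKM (CPM per kilobase of the annotated length in the count tables) was highest for Mpo at 326, with a range of 174 to 595, followed by Lyz2 at 185 with a range of 124 to 276. Ctsg (90.5), Elane (44.5), Prtn3 (43.8) and Irf8 (33.4) came next, then Cebpa (15.6), Ms4a3 (12.1), Csf1r (4.70) and Cebpe (1.84). In CD150-positive libraries Lyz2 led at a median of 174 RPKM and Mpo followed at 69.3. Below them stood Elane (26.3), Prtn3 (25.8), Ctsg (22.0), Ms4a3 (11.6), Irf8 (4.68), Cebpa (3.17), Cebpe (1.51) and Csf1r (1.21 RPKM). Ranges of neighbours in either order overlapped, as for Elane (11.7 to 97.7 RPKM) and Prtn3 (15.7 to 60.3 RPKM) in CD150-positive libraries, so their order is not firm. The counts behind the levels were lowest for Cebpe, at 10 to 87 counts a library in CD150-positive and 38 to 147 in CD150-negative cells, and largest for Mpo in CD150-negative cells, at 17119 to 47652 counts. In CD150-positive cells Mpo had 1835 to 15821 counts and Lyz2 2372 to 7662. In NCBIM37 coordinates (mm9) Mpo lies at chr11:87607083-87617915, Ctsg at chr14:56718718-56721411, Cebpe at chr14:55329200-55331011 and Cebpa, a gene of 1 exon, at chr7:35904312-35906945. Prtn3 (chr10:79337221-79345919), Elane (chr10:79349057-79350961) and Lyz2 (chr10:116714390-116719377) share a chromosome, Irf8 lies at chr8:123260258-123280594 and Ms4a3 at chr19:11703987-11715341. For Lyz2, 15.4% of the 50-base windows of its transcripts occur also in those of its neighbour Lyz1, which lay at 32.6 to 55.6 CPM in CD150-positive libraries, so Lyz2 counts are less certain than the rest. Mpo overlaps Gm11505, Prtn3 overlaps BC005764 and Csf1r overlaps Hmgxb3 on the opposite strand, and Irf8 overlaps Gm20388 on its own strand. The strand setting of the counting was not given in the sources used here, so reads in such overlaps could not be told apart.

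**Figure D1:**
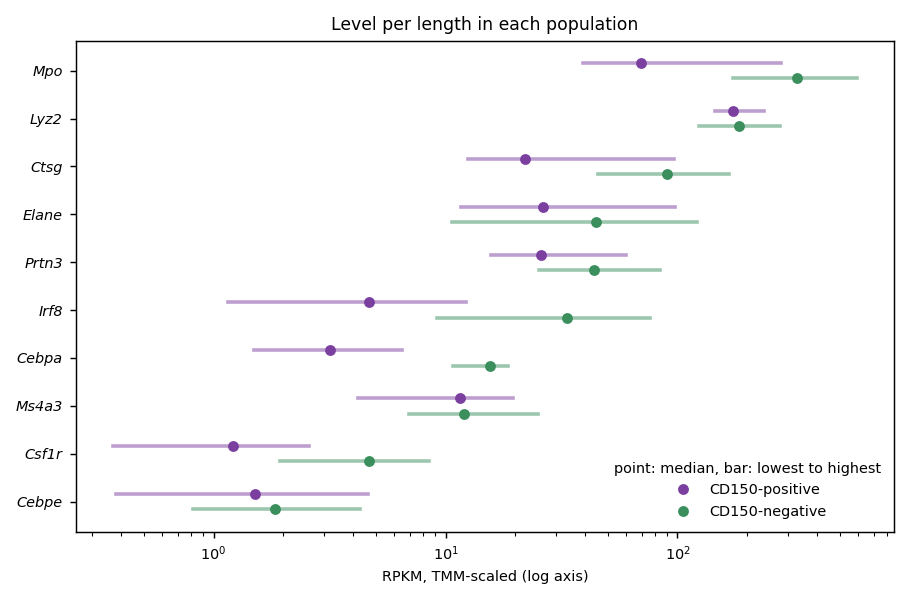
Level per length of each gene on a log axis in RPKM, CD150-positive above CD150-negative for each gene; points are medians over 17 and 12 libraries and bars run from the lowest to the highest library. The ranges of the populations do not overlap for Cebpa, overlap narrowly for Irf8 and Csf1r, and nearly coincide for Lyz2, Ms4a3 and Cebpe.

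The granule enzyme genes varied together among libraries of the same group. Pearson's r of the deviations of log2 CPM from the group means, over 29 libraries, was 0.97 between Mpo and Ctsg, 0.82 between Elane and Prtn3, 0.81 between Prtn3 and Ctsg and 0.77 between Mpo and Elane. Ms4a3 followed them at 0.67 with Prtn3 to 0.76 with Elane. Cebpa lay at 0.66 with Mpo and 0.39 with Elane, and Csf1r at 0.69 with Irf8 but 0.04 with Cebpa. Irf8 itself lay at 0.68 with Mpo, or 0.51 without the P and W libraries. Lyz2 lay from -0.19 with Csf1r to 0.29 with Elane; without the P and W libraries it reached 0.45 with Elane, and its value with Mpo was 0.31, against 0.07 with them. These values describe 29 libraries in 8 groups; libraries share depth and preparation across all genes, and the correlations carry no test. Leaving out the P and W libraries left r at 0.95 for Mpo and Ctsg and at 0.65 for Csf1r and Irf8.

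Among the 10637 genes whose log2 CPM averaged 2 or more, those whose deviations were most like those of Mpo were Clec12a (r = 0.92), an inhibitory lectin receptor of myeloid cells, Atp8b4 (0.90), Anxa3 (0.89), an annexin of neutrophils, and Csrp2bp (0.85). For Csf1r they were Gltscr1l (0.78), Abca3 (0.76), Uhrf1bp1 (0.76) and Robo4 (0.75). For Cebpe, the gene with the fewest counts, the closest were Cpped1 (0.71), Haus5 (0.66), Mc5r (0.66) and Vcam1 (0.62), all less alike than Mpo and its neighbours were.

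**Figure D2:**
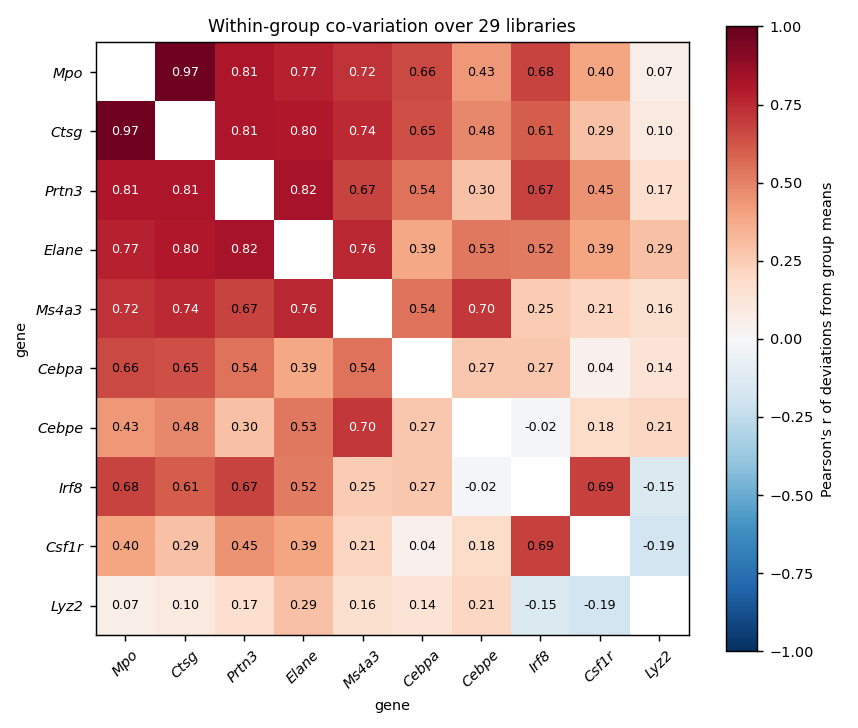
Pearson's r between pairs of the 10 genes for deviations of log2 CPM from the group means over 29 libraries, from -1 in blue to 1 in red. Mpo, Ctsg, Prtn3 and Elane form a block between 0.77 and 0.97, with Ms4a3 beside it, while Lyz2 lies between -0.19 and 0.29 with every other gene, or up to 0.45 without the P and W libraries.

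Because these 4 enzyme genes moved together, the bases before their start sites are shown, as RefSeq gives them (build GRCm38.p6) and as they match once each, letter for letter, in NCBIM37, the build named mm9 in the submitters' processing notes. Each run holds the 250 bases that end at the RefSeq start site and reads 5′ to 3′ on the strand of the gene. By the gene positions given above, which come from another annotation, the run of Mpo reaches into the gene and that of Prtn3 lies inside it. Capitals mark GAGGAA, a core that PU.1 and other ETS factors bind, and, in Ctsg, ACCACA, the reverse complement of the RUNX core TGTGGT. Mpo lies at chr11:87607036-87607285 on the plus strand, Elane at chr10:79348807-79349056 and Prtn3 at chr10:79342162-79342411, both on the plus strand, and Ctsg at chr14:56721412-56721661 on the minus strand.
Mpo: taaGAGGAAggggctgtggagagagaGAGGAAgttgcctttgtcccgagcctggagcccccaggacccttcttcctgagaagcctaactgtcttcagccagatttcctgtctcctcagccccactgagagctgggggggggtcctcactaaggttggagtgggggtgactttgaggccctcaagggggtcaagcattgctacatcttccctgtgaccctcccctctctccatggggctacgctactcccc
Elane: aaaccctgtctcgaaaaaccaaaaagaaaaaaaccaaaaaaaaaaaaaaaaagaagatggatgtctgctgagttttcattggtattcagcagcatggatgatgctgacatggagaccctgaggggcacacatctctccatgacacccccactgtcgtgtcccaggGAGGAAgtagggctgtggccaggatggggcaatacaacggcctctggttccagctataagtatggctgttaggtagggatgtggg
Prtn3: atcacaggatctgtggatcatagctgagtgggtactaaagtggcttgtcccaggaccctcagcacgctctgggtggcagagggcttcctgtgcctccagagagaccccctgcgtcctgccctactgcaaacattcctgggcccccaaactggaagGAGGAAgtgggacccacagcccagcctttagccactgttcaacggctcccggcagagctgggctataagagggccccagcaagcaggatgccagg
Ctsg: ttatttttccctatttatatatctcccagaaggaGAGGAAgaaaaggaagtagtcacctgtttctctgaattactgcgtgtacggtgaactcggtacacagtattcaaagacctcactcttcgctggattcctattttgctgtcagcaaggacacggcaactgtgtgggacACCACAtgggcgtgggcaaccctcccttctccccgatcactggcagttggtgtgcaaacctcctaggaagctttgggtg

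Elane and Prtn3 are neighbours, 3138 bases apart. GAGGAA, searched on both strands, was in the windows of all 4 enzyme genes and in 23.3% of 32851 promoter windows of the same length. Counted in bases from the start site, it lay at -247 and -224 in Mpo, -85 in Elane, -95 in Prtn3 and -216 in Ctsg. The windows of Cebpa, Irf8, Ms4a3 and Lyz2, the other members with an entry, did not hold these letters. The C/EBP letters TTGCNNAA, found in 9.56% of all windows, were in none of the 8 genes' windows, and TGTGGT, found in 14.0%, was in those of Ctsg and Lyz2. The letters only describe these stretches, and binding was not measured.

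**Figure D3:**
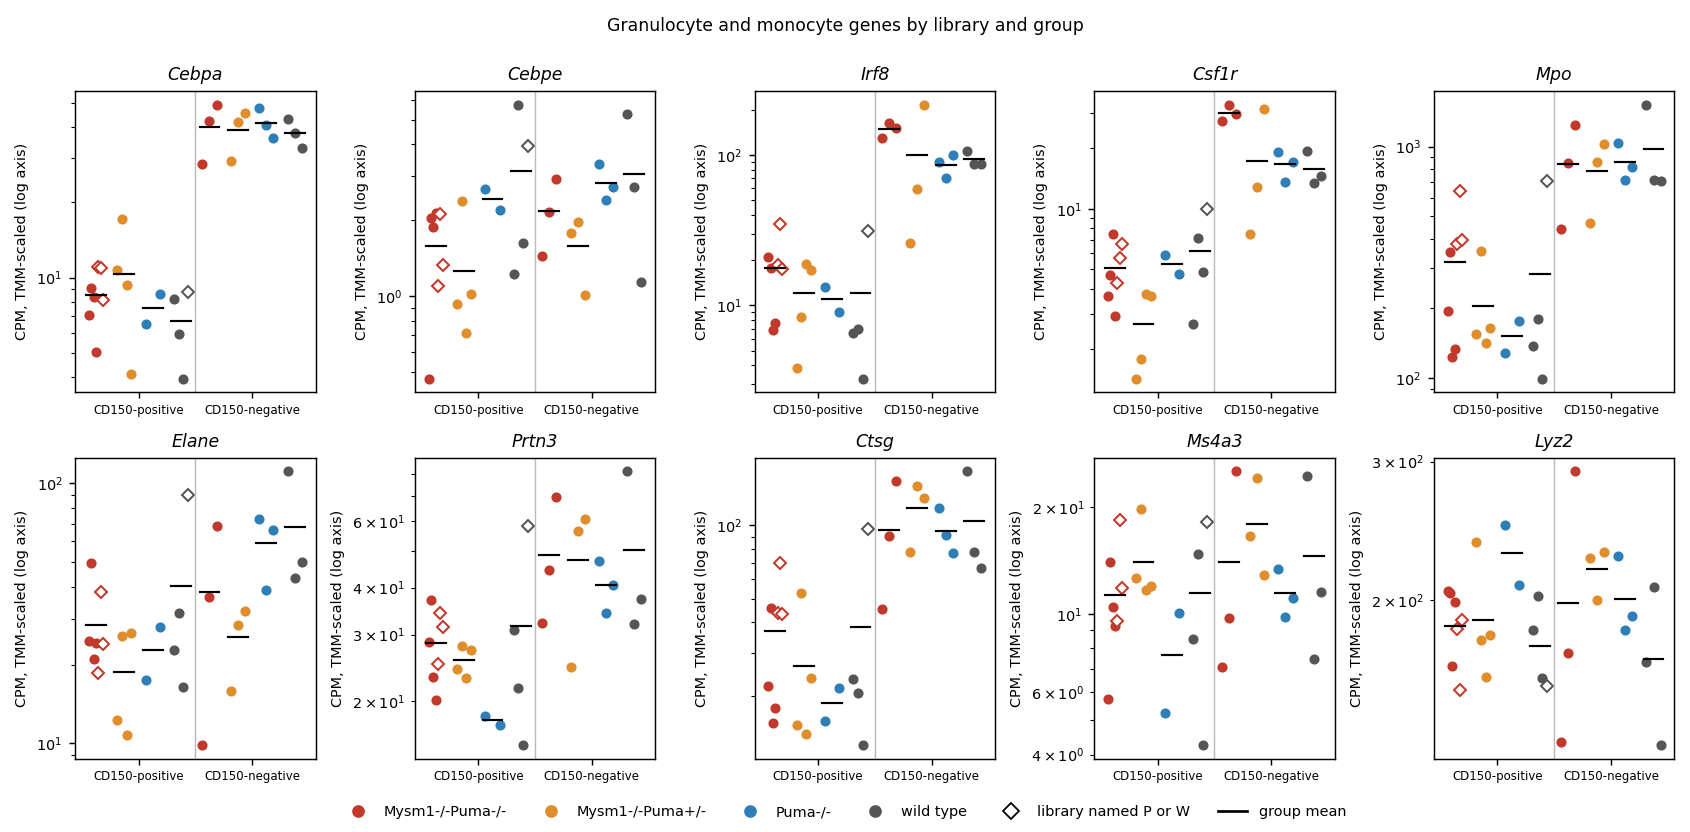
CPM of each gene in each library on a log axis, CD150-positive groups left and CD150-negative groups right of the grey line, ordered Mysm1-/-Puma-/-, then Mysm1-/-Puma+/-, Puma-/- and wild type from left to right; bars are group means and open diamonds are the P and W libraries. Cebpa is lower in every CD150-positive than in any CD150-negative library, and the P and W diamonds stand high for Mpo and Ctsg.

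CD150-positive cells were set against CD150-negative cells of the same genotype, which asks how far the programme differs between the stem cell-enriched and the progenitor-enriched gate. Cebpa, Irf8 and Mpo were lower in CD150-positive cells in each of the 4 genotypes, Csf1r in 3 of them and Ctsg in 1. Elane, Prtn3, Cebpe, Ms4a3 and Lyz2 passed the test in none. Calls are at a Benjamini-Hochberg adjusted p under 0.05 over all 21830 genes by edgeR's quasi-likelihood test. In libraries labelled Mysm1-/-Puma-/-, 4 of the 10 genes were lower and 0 higher, where 7.14% of all genes were lower and 5.16% higher. With Mysm1-/-Puma+/-, 5 were lower and 0 higher, where 3.24% of all genes were lower and 2.67% higher. In Puma-/- cells 3 were lower and 0 higher (2.66% and 2.29% of all genes), and in wild type 4 were lower and 0 higher (4.05% and 3.09%). DESeq2 called 3, 5, 6 and 4 genes in these comparisons, all lower, and no member was higher at an unadjusted p under 0.05. The shares of all genes that DESeq2 called are not given here. The median log2 fold change of the 10 genes was -1.08, -1.40, -1.51 and -1.05, beside -0.07, 0.00, 0.15 and 0.05 for all genes. In bulk RNA, fewer cells that express a gene and less RNA per cell cannot be told apart.

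Cebpa, the factor that starts the programme, was the steadiest of the differences. Its lowest, median and highest levels were 5.04, 8.37 and 10.99 CPM in CD150-positive Mysm1-/-Puma-/- libraries, against 28.5, 42.3 and 48.9 CPM in CD150-negative ones. With Mysm1-/-Puma+/- it was at 10.7, 17.1, 9.31 and 4.14 CPM in CD150-positive and at 29.1, 41.7 and 45.4 CPM in CD150-negative libraries. All CD150-positive libraries of both genotypes lay below all CD150-negative ones. In Puma-/- cells Cebpa was at 6.52 and 8.64 CPM in CD150-positive and at 47.4, 40.7 and 36.0 CPM in CD150-negative libraries. In wild type it was at 8.21, 5.98, 3.95 and 8.73 CPM in CD150-positive and at 43.0, 37.7 and 33.0 CPM in CD150-negative libraries. The groups did not overlap in any genotype. The log2 fold change of Cebpa was -2.22 ± 0.27 (SE; adjusted p = 6.1e-07) with Mysm1-/-Puma-/-, -1.91 ± 0.31 (0.00013) with Mysm1-/-Puma+/-, -2.46 ± 0.42 (0.00032) with Puma-/- and -2.49 ± 0.32 (3.8e-06) in wild type, all by edgeR. The call held under every alternative tried, with a highest adjusted p of 0.0265, in Puma-/- cells.

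Irf8, the factor of the monocyte and dendritic branch, had the largest fold changes of the 10 genes in each genotype. In CD150-positive Mysm1-/-Puma-/- libraries it ran from 6.83 over a median of 17.8 to 34.6 CPM, against 131, 165 and 151 CPM in CD150-negative ones. With Mysm1-/-Puma+/- it was at 3.84, 8.42, 18.8 and 17.1 CPM in CD150-positive and at 26.1, 59.6 and 216 CPM in CD150-negative libraries. These last 3 values were far apart, and A1 was the lowest and A3 the highest of the libraries A1 to A3 in both populations. Puma-/- cells had 13.2 and 8.98 CPM of Irf8 in CD150-positive and 89.4, 70.1 and 99.6 CPM in CD150-negative libraries. Wild-type cells had 6.55, 7.004, 3.25 and 31.5 CPM in CD150-positive and 107, 87.9 and 87.9 CPM in CD150-negative libraries. W1 was the high one among wild-type CD150-positive libraries, and the groups did not overlap in any genotype. The log2 fold change of Irf8 was -3.06 ± 0.51 (adjusted p = 8.4e-05), -3.07 ± 0.62 (0.0016), -2.95 ± 0.82 (0.030) and -2.95 ± 0.62 (0.0021) in Mysm1-/-Puma-/-, then Mysm1-/-Puma+/-, Puma-/- and wild type, by edgeR. Without the CD150-negative library A3 the Mysm1-/-Puma+/- value moved to -1.84 and missed the threshold (adjusted p = 0.0741). The Puma-/- call ended on leaving out any of C2, C5, C1-4 and C2-5 (adjusted p of 0.0638 to 0.357), whereas those of Mysm1-/-Puma-/- and wild type held under every alternative. In wild type the value was -4.15 without the P and W libraries.

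Cebpe, the late granulocyte factor, was low in all groups and did not separate the populations. It lay at 0.471 to 5.72 CPM in CD150-positive and at 1.01 to 5.27 CPM in CD150-negative libraries, and the ranges overlapped in every genotype. Its log2 fold change ran from -0.46 ± 0.52 with Mysm1-/-Puma-/- to 0.03 ± 0.59 in wild type, where the 95% interval was -1.17 to 1.23.

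Csf1r, the receptor of the monocyte and macrophage line, was lower in CD150-positive cells as well. Its lowest, median and highest levels were 2.91, 4.70 and 7.50 CPM in CD150-positive Mysm1-/-Puma-/- libraries, against 27.3, 29.6 and 32.9 CPM in CD150-negative ones. Mysm1-/-Puma+/- libraries had 1.42, 1.79, 3.78 and 3.70 CPM in the CD150-positive and 7.48, 12.8 and 31.6 CPM in the CD150-negative population. No CD150-positive library reached a CD150-negative one, although A1 and A3 of the CD150-negative group lay far apart. Puma-/- cells had 5.91 and 4.75 CPM of Csf1r in CD150-positive and 19.2, 13.7 and 17.2 CPM in CD150-negative libraries. Wild-type cells had 2.66, 7.17, 4.87 and 9.95 CPM in CD150-positive and 19.3, 13.4 and 14.5 CPM in CD150-negative libraries, again with no overlap. The log2 fold change of Csf1r was -2.57 ± 0.34 (adjusted p = 3.6e-06) with Mysm1-/-Puma-/- and -2.70 ± 0.42 (6.5e-05) with Mysm1-/-Puma+/-, by edgeR. It was -1.64 ± 0.52 (0.064) in Puma-/- cells, where DESeq2 gave an adjusted p of 0.0137, and -1.35 ± 0.40 (0.037) in wild type. The wild-type call ended on leaving out CD150-negative D2, D3 or D4 or CD150-positive D1 or D3-4 (adjusted p of 0.0582 to 0.165), and without the libraries of high receptor counts (0.0557). It held without the P and W libraries, at -1.76 (adjusted p = 0.0080).

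Mpo, the most abundant granule enzyme RNA here, was lower in CD150-positive cells with a wider spread. In CD150-positive Mysm1-/-Puma-/- libraries it ran from 123 over a median of 350 to 641 CPM, against 443, 846 and 1239 CPM in CD150-negative ones. With Mysm1-/-Puma+/- it was at 155, 355, 141 and 164 CPM in CD150-positive and at 468, 854 and 1029 CPM in CD150-negative libraries. P2 overlapped the CD150-negative Mysm1-/-Puma-/- range, while the Mysm1-/-Puma+/- groups stood apart. Puma-/- cells had 128 and 176 CPM of Mpo in CD150-positive and 1035, 717 and 814 CPM in CD150-negative libraries. Wild-type cells had 138, 180, 99.3 and 712 CPM in CD150-positive and 1515, 717 and 711 CPM in CD150-negative libraries, with W1 level with D3 and D4. The log2 fold change of Mpo was -1.41 ± 0.47 (adjusted p = 0.045), -1.94 ± 0.55 (0.028), -2.49 ± 0.72 (0.038) and -1.80 ± 0.54 (0.040) in Mysm1-/-Puma-/-, then Mysm1-/-Puma+/-, Puma-/- and wild type, by edgeR.

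Each of the 4 calls of Mpo rested on single libraries. With Mysm1-/-Puma-/- it ended on leaving out CD150-negative B3 or B5 or CD150-positive B1, B3, B5, B6 or P1, with an adjusted p of 0.0598 to 0.320 and a value of -0.95 without B5, and also with DESeq2 (0.0699). With Mysm1-/-Puma+/- it ended on leaving out CD150-negative A2 or A3 or CD150-positive A1, A3 or A4 (0.0792 to 0.116), and in Puma-/- cells on leaving out any library of the groups (0.0512 to 0.254). In wild type it ended on leaving out any library but W1 (0.0506 to 0.263). Without the P and W libraries the difference in Mpo was larger, at -2.07 with Mysm1-/-Puma-/- (adjusted p = 0.00038) and -2.89 in wild type (4.3e-05).

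Of the serine protease genes, Ctsg passed in 1 genotype. It averaged 36.9 ± 19.7 CPM in CD150-positive and 96.1 ± 53.8 CPM in CD150-negative Mysm1-/-Puma-/- libraries (SD, n = 7 and 3). With Mysm1-/-Puma+/- it was at 15.2, 52.7, 14.0 and 23.7 CPM in CD150-positive and at 77.9, 145 and 130 CPM in CD150-negative libraries, and in wild type at 23.5, 20.5, 12.6 and 96.4 CPM against 167, 77.7 and 66.8 CPM. W1 again reached into the CD150-negative range, and the Mysm1-/-Puma+/- groups did not overlap. Ctsg was lower with Mysm1-/-Puma+/- (-2.16 ± 0.56, edgeR adjusted p = 0.016), a call that ended without CD150-negative A2 or CD150-positive A1 or A3 (0.0578 to 0.0691). It was at -1.38 ± 0.48 (0.058) with Mysm1-/-Puma-/-, -2.36 ± 0.74 (0.064) in Puma-/- cells and -1.43 ± 0.56 (0.13) in wild type. Without the P and W libraries these values were -1.92 (adjusted p = 0.0027), -2.45 (0.0067) and -2.52 (0.00080), all past the threshold.

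Elane and Prtn3 passed in no genotype, and whether they differ from Ctsg in this was not tested. Elane lay at 10.8 to 89.9 CPM in CD150-positive and at 9.83 to 111 CPM in CD150-negative libraries, and Prtn3 at 15.3 to 58.5 and at 24.6 to 81.5 CPM. The population ranges of both genes overlapped, although in Puma-/- cells both CD150-positive libraries lay below all CD150-negative ones. Elane was at -0.41 ± 0.46, -0.44 ± 0.51, -1.38 ± 0.65 and -0.76 ± 0.51 and Prtn3 at -0.77 ± 0.31, -0.88 ± 0.35, -1.19 ± 0.44 and -0.67 ± 0.35 (log2 fold change) in Mysm1-/-Puma-/-, then Mysm1-/-Puma+/-, Puma-/- and wild type. In wild type without the P and W libraries both passed the threshold, Elane at -1.60 (edgeR adjusted p = 0.043) and Prtn3 at -1.21 (0.028). Without those libraries 7 of the 10 genes were lower in wild type. In Puma-/- cells 5 were, through Ctsg and Csf1r, and with Mysm1-/-Puma-/- 5 were, through Ctsg. The Puma-/- groups hold no P or W library, yet their count moved. The shares of all genes called without those libraries are not given here, so the shifts may not be particular to the members. Leaving out W1 alone added Ctsg (-2.46, adjusted p = 0.0028) and Prtn3 (-1.15, 0.031) in wild type.

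Ms4a3 and Lyz2 did not separate the populations. Ms4a3 lay at 4.26 to 19.8 CPM in CD150-positive and at 7.08 to 25.3 CPM in CD150-negative libraries, and its log2 fold change ran from -0.59 ± 0.55 in Puma-/- cells to -0.31 ± 0.39 with Mysm1-/-Puma-/-. Lyz2 lay at 154 to 249 CPM in CD150-positive and at 131 to 292 CPM in CD150-negative libraries. Its log2 fold change was -0.10 ± 0.17, -0.21 ± 0.19, 0.19 ± 0.23 and 0.06 ± 0.19 in the same order of genotypes, with a 95% interval of -0.34 to 0.45 in wild type.

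**Figure D4:**
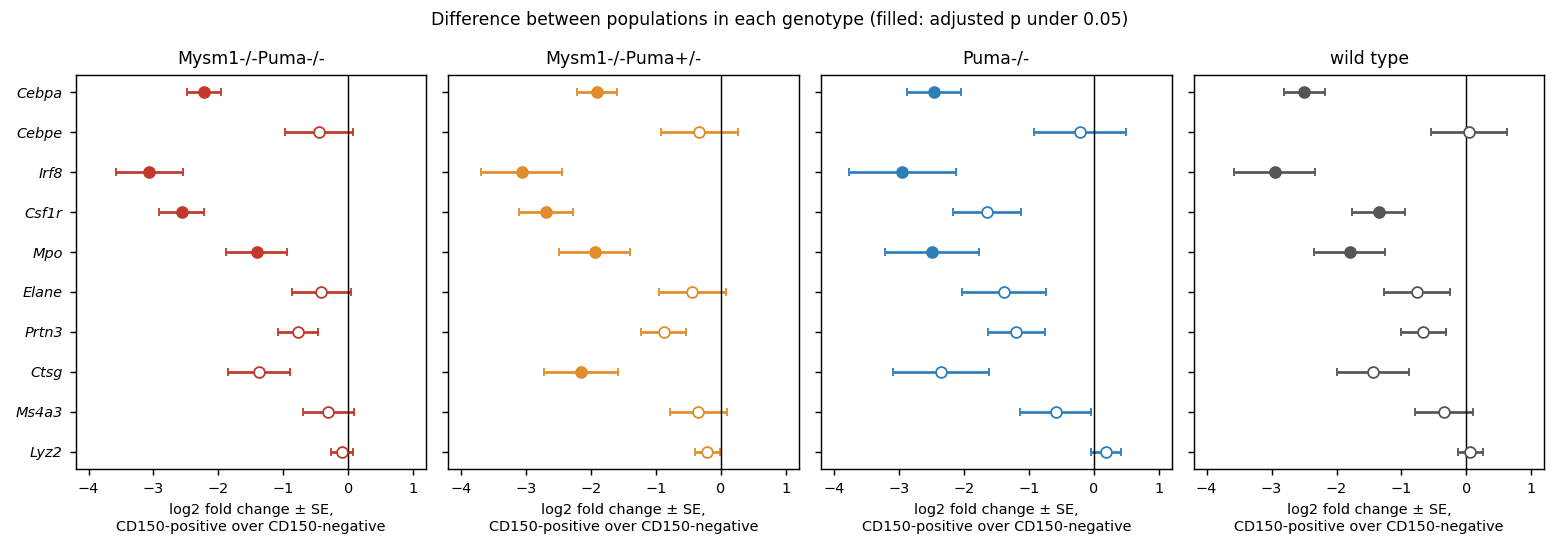
Log2 fold change of CD150-positive over CD150-negative libraries for each gene, with its standard error, in 4 genotypes; filled points have an edgeR adjusted p under 0.05. Cebpa, Irf8 and Mpo are filled and left of 0 in all 4 panels, Csf1r in 3 and Ctsg in 1, while Lyz2 lies between -0.21 and 0.19.

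Other genes of the programme were counted in lists of 15 regulators, 22 receptors and 36 granule and effector genes. Of the receptors, 10, 10, 5 and 7 were lower and 1, 1, 0 and 1 higher in CD150-positive cells of Mysm1-/-Puma-/-, then Mysm1-/-Puma+/-, Puma-/- and wild type. Their median log2 fold changes were -0.93, -0.99, -0.72 and -0.58, beside medians of -0.07, 0.00, 0.15 and 0.05 for all genes. Of all genes 7.14%, 3.24%, 2.66% and 4.05% were lower and 5.16%, 2.67%, 2.29% and 3.09% higher, in the same order. In wild type the receptors that passed included the surface sialomucin Cd34 (-1.57 ± 0.24, edgeR adjusted p = 3.9e-05), the integrin Itgam (-1.54 ± 0.25, 9.0e-05) and the interleukin 6 receptor Il6ra (-1.61 ± 0.33, 0.0017). Cx3cr1, the fractalkine receptor of monocytes, named after its value was seen, went the other way, at 336 CPM in CD150-positive and 85.1 CPM in CD150-negative cells (1.98 ± 0.53, 0.017).

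Of the 35 granule and effector genes tested, 9, 7, 6 and 6 were lower and 0 higher in the same order of genotypes. Beside these and the regulators below, 7.14%, 3.24%, 2.66% and 4.05% of all genes were lower and 5.16%, 2.67%, 2.29% and 3.09% higher. Ncf1, a subunit of the NADPH oxidase, was the clearest in wild type, at 23.6 CPM in CD150-positive and 143 CPM in CD150-negative cells (-2.59 ± 0.26, edgeR adjusted p = 7.1e-08). Serpinb1a, an inhibitor of elastase and cathepsin G, was at -1.10 ± 0.17 (4.9e-05) and Plac8 at -1.32 ± 0.21 (9.1e-05). The regulators were mixed, with 5, 2, 2 and 3 lower and 3, 2, 1 and 3 higher. Gfi1, a repressor that favours granulocytes, was lower in each genotype (wild type -1.29 ± 0.33, 0.013), while Nfe2, a megakaryocyte and erythroid factor, was higher in wild type (0.53 ± 0.13, 0.0087). Without the P and W libraries 11, 11, 6 and 7 receptors and 9, 7, 6 and 6 granule genes were lower. So were 4, 2, 2 and 5 regulators, and the shares of all genes called without these libraries are not given here.

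Marker lists of other cells moved with the population in both directions. The 12 markers of multipotent and lymphoid-primed progenitors, among them Flt3, Dntt and Il7r, summed to 258 to 852 CPM in CD150-positive and to 1159 to 3529 CPM in CD150-negative libraries. Of the 11 mature neutrophil markers 10 were matched, and they summed to 94.1 to 798 CPM in CD150-positive and to 196 to 728 CPM in CD150-negative libraries, with Retnlg at 0 in at least 1 CD150-positive library. The 10 macrophage markers summed to 38.7 to 81.1 CPM and to 59.9 to 93.2 CPM, with Marco at 0 in a CD150-positive and Timd4 at 0 in a CD150-negative library. Higher in CD150-positive libraries without overlap were the sums of 12 stem cell markers (796 to 1471 against 483 to 711 CPM), of 10 megakaryocyte markers (311 to 1332 against 58.6 to 91.7 CPM) and of 12 eosinophil, basophil and mast cell markers (185 to 329 against 83.0 to 138 CPM). Erythroid (757 to 1801 against 367 to 808 CPM), dendritic (199 to 317 against 250 to 443 CPM), B cell (22.7 to 2440 against 77.5 to 1392 CPM) and T and NK cell sums (23.5 to 127 against 35.3 to 97.6 CPM) overlapped. The part of these cells in the differences of the 10 genes was not tested.

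The P and W libraries stood high for some of the genes within the CD150-positive population. Mpo lay at 381 to 712 CPM in these 4 libraries, against 99.3 to 355 CPM in the other 13, with no overlap. Ctsg (43.1 to 96.4 against 12.6 to 52.7 CPM) and Irf8 (17.6 to 34.6 against 3.25 to 21.1 CPM) overlapped, as did the other members. Their summed multipotent and lymphoid markers lay at 531 to 852 CPM, against 258 to 504 CPM in the other CD150-positive libraries. Their summed mature neutrophil markers went the other way, at 94.1 to 200 CPM against 193 to 798 CPM, with a narrow overlap. The sums of the other marker lists overlapped too, and the part of any list in the values of Mpo was not tested. No CD150-negative library has a P or W name, and W1 is the only wild-type library among these 4. Without these libraries the log2 fold change of CD150-positive over CD150-negative cells was -2.43, -1.90, -2.55 and -2.71 for Cebpa and -3.45, -3.06, -3.02 and -4.15 for Irf8, in Mysm1-/-Puma-/-, then Mysm1-/-Puma+/-, Puma-/- and wild type. For Csf1r it was -2.68, -2.69, -1.72 and -1.76, and all of these passed the threshold. Cebpe (-0.42 to -0.21), Ms4a3 (-0.75 to -0.35) and Lyz2 (-0.20 to 0.11) did not pass.

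Genotypes were compared within each population, which asks whether the programme shifts without MYSM1 and whether loss of Puma alters it. No member passed the edgeR threshold in any of the 10 comparisons, and DESeq2 called 0 members in each. In CD150-negative cells the share of all 21168 genes called was 2.31% for Mysm1-/-Puma-/- against wild type, 0.869% for Mysm1-/-Puma+/- against wild type, 1.24% for Mysm1-/-Puma-/- against Mysm1-/-Puma+/-, 1.35% for Mysm1-/-Puma-/- against Puma-/- and 0% for Puma-/- against wild type. At an unadjusted p under 0.05 the members counted 1, 1, 0, 1 and 0 in these comparisons. All 21168 genes counted 2775, 2020, 3607, 2339 and 324 at that threshold. In CD150-positive cells the shares of 20944 genes were 0.291%, 0.454%, 0%, 0.115% and 0% in the same order. At an unadjusted p under 0.05 the members counted 0, 2, 1, 1 and 1 there, and all genes 1556, 1824, 797, 2042 and 255. At the shares called, 0 calls among 10 genes do not set the members apart from other genes. Comparisons that share a group, such as those against wild type, share its libraries.

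Csf1r and Irf8, the monocyte members, lay above wild type in every CD150-negative library labelled Mysm1-/-Puma-/-. These libraries had 27.3, 32.9 and 29.6 CPM of Csf1r, against 7.48, 12.8 and 31.6 CPM in Mysm1-/-Puma+/-, 19.2, 13.7 and 17.2 CPM in Puma-/- and 19.3, 13.4 and 14.5 CPM in wild-type libraries. All 3 lay above all Puma-/- and wild-type libraries, and A3 of Mysm1-/-Puma+/- lay among them. The log2 fold change of Csf1r was 0.88 ± 0.35 against wild type (edgeR adjusted p = 0.27), 0.80 ± 0.35 against Puma-/- (0.40) and 0.71 ± 0.35 against Mysm1-/-Puma+/- (0.31). Irf8, with 131, 165 and 151 CPM in Mysm1-/-Puma-/- and 107, 87.9 and 87.9 CPM in wild-type libraries, did not overlap either and was at 0.61 ± 0.45 (adjusted p = 0.68). In an edgeR fit of the compared groups alone both passed against wild type, Csf1r at an adjusted p of 0.0126 and Irf8 at 0.0471. That fit differs in the libraries that give the spread, and also in the filter, the size factors and the adjustment. The cause of the change was not tested.

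The CD150-negative library A3, labelled Mysm1-/-Puma+/-, held the mean of its group up for both genes, with 216 CPM of Irf8 and 31.6 CPM of Csf1r. Without it Irf8 went from an uncalled 0.13 ± 0.45 against wild type to -1.11 (edgeR adjusted p = 0.0352), lower in libraries labelled Mysm1-/-Puma+/-. Mysm1-/-Puma-/- against Mysm1-/-Puma+/- then gave 1.72 for Irf8 (0.0024) and 1.48 for Csf1r (0.0035). The 12 multipotent and lymphoid markers summed to 3024 CPM in A3, against 1159 and 1523 CPM in A1 and A2, and to 2794 to 3529 CPM in wild type. Their part in these values was not tested.

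Elane, the elastase gene, had its lowest group means in libraries labelled Mysm1-/-Puma+/-, at 18.9 CPM in CD150-positive and 25.5 CPM in CD150-negative cells. CD150-positive Mysm1-/-Puma+/- libraries had 12.2, 25.9, 10.8 and 26.5 CPM of Elane, against 22.9, 31.6, 16.4 and 89.9 CPM in wild type. CD150-negative ones had 15.9, 28.4 and 32.3 CPM, against 111, 43.1 and 49.8 CPM in wild type. The groups overlapped in CD150-positive cells and did not in CD150-negative cells, where the share of all genes that separate was not counted. The log2 fold change of Elane against wild type was -1.04 ± 0.43 in CD150-positive (edgeR adjusted p = 0.49) and -1.38 ± 0.50 in CD150-negative cells (0.31), and neither passed. Without W1 the CD150-positive value was -0.26, so its size rests on that library. Prtn3, its neighbour in the genome, was at -0.24 ± 0.29 and -0.05 ± 0.36, and at 0.25 in CD150-positive cells without W1. Libraries labelled Mysm1-/-Puma-/- had 9.83, 36.4 and 68.3 CPM of Elane in the CD150-negative population, across and below the wild-type range.

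In CD150-positive cells Csf1r was at 1.42, 1.79, 3.78 and 3.70 CPM in Mysm1-/-Puma+/- libraries, against 2.66, 7.17, 4.87 and 9.95 CPM in wild type. The groups overlapped, and the log2 fold change of Csf1r was -1.14 ± 0.42 (edgeR adjusted p = 0.43), or -0.80 without W1. Mysm1-/-Puma-/- libraries, with 2.91 to 7.50 CPM, were at 0.87 ± 0.38 against Mysm1-/-Puma+/- (adjusted p = 1.0) and at -0.26 ± 0.37 against wild type, or 0.09 without W1, with its sign turned. Prtn3 was at 18.2 and 17.3 CPM in the Puma-/- libraries, below all 7 Mysm1-/-Puma-/- libraries (20.1 to 37.1 CPM), at an edgeR adjusted p of 0.51. Lyz2 and Cebpe went the other way and were not called either. Lyz2 was at 209 and 249 CPM in Puma-/- and at most 205 CPM in Mysm1-/-Puma-/- libraries, and Cebpe at 2.20 and 2.65 against at most 2.13 CPM. The share of all genes that separate was not counted. Prtn3 was at -0.88 ± 0.37 in Puma-/- against wild type (edgeR adjusted p = 1.0), or -0.37 without W1. Cebpe, with 0.713 to 2.37 CPM in Mysm1-/-Puma+/- and 1.22 to 5.72 CPM in wild-type libraries, was at -1.22 ± 0.61 (0.60).

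The other values against wild type did not pass either, and in CD150-positive cells several of them turned on W1. Cebpa was at 0.03 ± 0.22 with Mysm1-/-Puma-/- and 0.06 ± 0.22 with Mysm1-/-Puma+/- in CD150-negative cells, with 95% intervals of -0.43 to 0.49 and -0.40 to 0.52. In CD150-positive cells Cebpa was at 0.37 ± 0.32 and 0.69 ± 0.36 (edgeR adjusted p = 0.82 and 0.61). Cebpe was at -0.94 ± 0.53 in CD150-positive and Elane at -0.86 ± 0.49 in CD150-negative cells with Mysm1-/-Puma-/-. Mpo was at 0.19 ± 0.47 and -0.41 ± 0.53 in CD150-positive and at -0.26 ± 0.36 and -0.30 ± 0.36 in CD150-negative cells, with an interval of -1.51 to 0.69 for CD150-positive Mysm1-/-Puma+/- cells. Without W1 the CD150-positive values of Mpo were 1.24 and 0.63, the second with its sign turned, and on leaving out P and W they were 0.57 and 0.63. Ctsg was at -0.03 ± 0.48 and -0.49 ± 0.54 in CD150-positive cells, and at 1.02 and 0.55 without W1, with both signs turned. Irf8 was at 0.58 ± 0.52 and 0.04 ± 0.58 there, and at 1.73 and 1.18 without W1. Ms4a3 ran from -0.08 ± 0.43 to 0.37 ± 0.37 and Lyz2 from 0.11 ± 0.14 to 0.40 ± 0.24 over these 4 comparisons. With Puma-/- against wild type, Csf1r was at -0.24 ± 0.52 in CD150-positive and 0.08 ± 0.35 in CD150-negative cells and Mpo at -0.95 ± 0.68 and -0.21 ± 0.36, and no member passed. Without W1 the CD150-positive values were 0.12 for Csf1r and 0.11 for Mpo, both with their sign turned. Lyz2 was at 0.36 ± 0.19 in CD150-positive cells, with both Puma-/- libraries above all wild-type ones. The share of all genes that separate so was not counted.

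**Figure D5:**
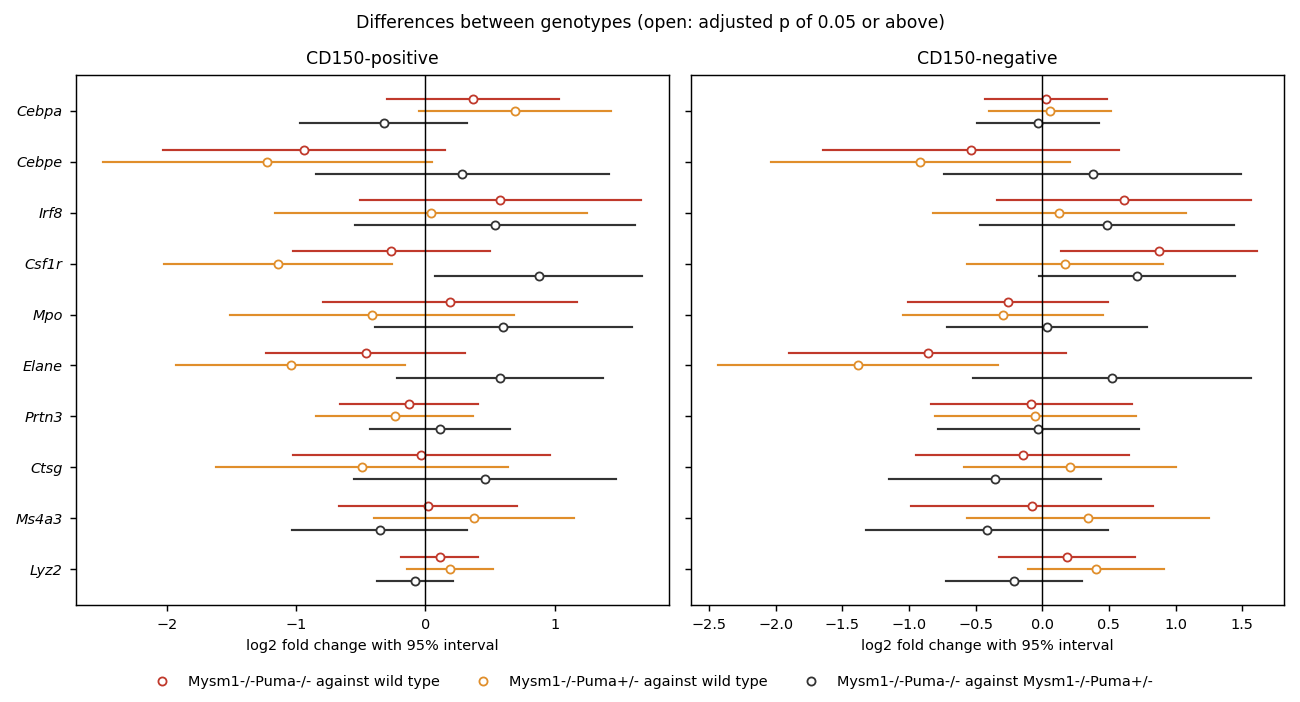
Log2 fold change with 95% intervals for each gene in CD150-positive (left) and CD150-negative libraries (right): Mysm1-/-Puma-/- against wild type in red, Mysm1-/-Puma+/- against wild type in orange and Mysm1-/-Puma-/- against Mysm1-/-Puma+/- in black. All points are open, none having an edgeR adjusted p under 0.05; Elane with Mysm1-/-Puma+/- lies at -1.04 in CD150-positive cells, or -0.26 without W1, and at -1.38 in CD150-negative cells.

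Whether a genotype effect differed between the populations was tested in the fit of all 29 libraries. No member passed edgeR's threshold, nor DESeq2's, in either comparison. By edgeR 0.00916% of 21830 genes passed for Mysm1-/-Puma+/- against wild type, and 0% for Mysm1-/-Puma-/- against Mysm1-/-Puma+/-. An unadjusted p under 0.05 was had by 1 and 0 members and by 801 and 462 of all genes, in that order. The 1 member was Csf1r, whose log2 effect of Mysm1-/-Puma+/- in CD150-positive cells minus that in CD150-negative cells was -1.35 ± 0.58 (edgeR adjusted p = 1.0). For Mpo that difference was -0.14 ± 0.77, with a 95% interval of -1.72 to 1.43, and for Irf8 -0.12 ± 0.86.

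In the other lists of the programme few genes differed between genotypes. Nkg7, a granule protein of cytotoxic cells, was higher in libraries labelled Mysm1-/-Puma+/- than in wild type in both populations, at 26.3 against 12.8 CPM in CD150-positive (1.12 ± 0.24, edgeR adjusted p = 0.028) and 32.6 against 15.1 CPM in CD150-negative cells (1.13 ± 0.22, 0.015). Nkg7 was also higher with Mysm1-/-Puma-/- than in wild type in CD150-positive cells, at 25.5 against 12.8 CPM (1.02 ± 0.21, 0.040). Cd33 was higher in CD150-negative Mysm1-/-Puma-/- than Mysm1-/-Puma+/- libraries, at 73.0 against 36.7 CPM (0.90 ± 0.21, 0.048). No listed regulator passed in any genotype comparison by edgeR, with 0 to 2 of 15 at an unadjusted p under 0.05 in each direction.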

How the data were processed

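RNA of sorted bone marrow cells was sequenced in paired reads of 50 bases, and the deposited files hold whole-number counts per gene that the authors made, as deposited and per the labels, with no scaling. Per the submitters' processing notes the tools were FastQC, Trimmomatic 0.33, TopHat2 2.0.9, Bowtie 1.0.0, featureCounts, edgeR and R 3.4.2, with the build mm9. The strand setting of the counting is not given in the sources used here, which bears on genes with overlapping neighbours. Totals ran from 12304713 to 54339749 counts a library, and the 10 genes had at least 10 counts in every library. No 2 libraries of a group agreed within counting noise (lowest chi-square per degree of freedom 20.7).

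Counts were tested with edgeR 4.0.16 (limma 3.58.1, R 4.3.3): TMM factors, filterByExpr with a minimum count of 10, the quasi-likelihood F test and Benjamini-Hochberg adjustment over all genes tested. Genotypes were compared in 1 fit per population, and populations and interactions in 1 fit of 29 libraries. Each standard error was taken from the log2 fold change and its F value. CPM levels come from the 29-library fit, RPKM from those and the length column of the files. Where groups are said not to overlap, the share of all genes that do the same was not counted. Library names were not taken as pairs, since the labels do not say that a name marks an animal and 4 of 7 same-named pairs, not all, had correlated deviations above 0.1 (range -0.079 to 0.42). The 10 genes, the lists and the tests were chosen with earlier results of these data known. Every member is named; of each list, up to 6 called genes with the smallest p, of which some are given and 1 is not reported here, and for Mpo, Cebpe and Csf1r the 4 genes of most similar deviations. Alternatives were DESeq2 1.42.0, other size factors, no filter, only the compared groups, a replicate block, and leaving out each library, the P and W libraries or the libraries with high receptor counts. In simulated data 200 expressed genes drawn at random were changed, so the rates are not those of the 10 genes. The comparisons were Mysm1-/-Puma+/- against wild type in CD150-negative and in CD150-positive cells, and the wild-type populations. In that order, over 20494, 20292 and 21483 genes, 2-fold changes were recovered at 49%, 42% and 48% and 4-fold changes at 77%, 78% and 75%. False calls made up 8.03%, 4.76% and 6.82% of all calls. Promoter bases came from RefSeq and were placed by exact match on NCBIM37.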

Additional observations from a re-analysis of the deposited data

Results flagged for a closer look

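Each member was checked in each CD150-positive group of 4 or 7 libraries, which gave 30 tests. In 5 of them 1 library stood far from the others of its group, by the gap set against the range. Chance alone gives about 1 in 20 for a single test. The tests are not independent, since all 5 come from libraries W1 and A2, so the 5 are not set against that rate. Library W1 of the CD150-positive wild-type group had 712 CPM of Mpo, with the next highest library at 180 CPM. It also had 96.4 CPM of Ctsg, with the next at 23.5 CPM, and 31.5 CPM of Irf8, with the next at 7.004 CPM. Library A2 of the CD150-positive Mysm1-/-Puma+/- group had 355 CPM of Mpo, with the next at 164 CPM, and 19.8 CPM of Ms4a3, with the next at 12.6 CPM. The cause of these values was not tested.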

How the results depend on the processing

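Of 160 member results, 139 kept their side of the threshold under every alternative run, among them Cebpa between populations in all 4 genotypes. None of the 16 called results changed sign; 76 results in all, none of them called, changed sign under at least 1 alternative. Between CD150-positive and CD150-negative cells the members called were 3 in Puma-/- cells and 7 with only the compared groups, 6 with DESeq2, 5 with no filter, 5 on leaving out P and W and 1 on leaving out the libraries of high receptor counts; in wild type they were 4, against 7 on leaving out P and W and 2 on leaving out those of high receptor counts. Leaving out 1 library at a time gave 3 to 5 calls with Mysm1-/-Puma+/-, 1 to 2 in Puma-/- and 2 to 6 in wild-type cells. In CD150-negative cells it gave 0 to 1 calls for Mysm1-/-Puma+/- against wild type, where Irf8 ran from -1.11 without A3, the reverse of its main sign, to 0.58 without A1, and 0 to 2 for Mysm1-/-Puma-/- against Mysm1-/-Puma+/-. Mysm1-/-Puma-/- against wild type had 2 calls, Csf1r and Irf8, with only the compared groups. The cause of these shifts was not tested, beyond the fewer libraries that each leaves. The shares of all genes called in these settings are not given here, so shifts in the counts may not be particular to the members. A replicate block by sample name gave 5 calls with Mysm1-/-Puma+/- and 5 with Mysm1-/-Puma-/- (4 without it) between populations, and a block by sample number gave 0 in 8 genotype comparisons; Irf8 with Mysm1-/-Puma+/- was at -3.04 under the block by name. Whether names mark pairs is not settled: 4 of 7 same-named libraries (A2, A3, B1 and B3) were most alike to their own name, and the other 3 were not. Counts of Cebpe, down to 10 a library, limit that gene most.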
